A study of Neotoma stephensi and Rattus norvegicus with 6 samples.

Results

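The genes described here encode the pumps, channels, exchangers and enzymes that handle sodium, potassium, chloride, protons and bicarbonate. They were taken from the deposited counts by symbol, as all genes of the Slc4a, Slc9a, Slc12a, Slc26a, Scnn1, Clcn, Atp1a and Atp1b series together with the carbonic anhydrases (Car plus a number). The files hold 64 such genes of 15481 in all. Prefix matching also brought in genes that are neither transporters nor active enzymes. These are Slc4a1ap, an adaptor protein named for binding Slc4a1, the scaffold proteins Slc9a3r1 and Slc9a3r2, which hold sodium/proton exchangers at the membrane, and the carbonic anhydrase relatives Car8 and Car11, which lack catalytic activity.

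Polyadenylated RNA was measured in the fornix ventricularis of the stomach, the nonglandular foregut, of 3 Stephen's woodrats (Neotoma stephensi) and 3 Sprague Dawley lab rats (Rattus norvegicus), all female. The woodrats were caught in the wild and fed juniper foliage until dissection, and harbor a dense foregut microbial community that ferments food. The lab rats were bought from a breeder, lived for months in a room shared with woodrats and ate standard rat chow, and lack such a community. The sample labels call all animals virgin, while the methods of the study give it as unknown for the wild-caught woodrats, and no ages are given. Species, diet, origin and microbial density changed together between the groups, so their effects on any gene cannot be told apart.

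In an absorbing or secreting epithelium, the Na/K-ATPase on the basolateral side exports sodium and imports potassium, and this gradient drives most other transport. Sodium enters from the lumen through the epithelial sodium channel or in exchange for protons, chloride moves through cotransporters and channels, and carbonic anhydrases supply the protons and bicarbonate that the exchangers carry. In the rumen, this machinery takes up sodium and chloride and buffers the acids that fermentation produces. Smooth muscle, nerve and glia carry their own versions of the same pumps and cotransporters, and all of these tissues were part of the samples. Fewer cells of a type and less RNA per cell cannot be told apart in such samples.

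Each animal had between 5439642 and 7932637 counted reads, so that 3 reads corresponded to between 0.355 and 0.586 CPM, read counts relative to library size, after TMM normalization, which scales the libraries to each other. Among all genes listed, 809 lacked lab rat reads and 0 lacked woodrat reads, so a transporter found only in lab rats would be missing from everything below. Smooth muscle markers summed to between 52760 and 159700 CPM in woodrats and between 16380 and 31310 CPM in lab rats (11 of 13 listed genes in the files), with woodrat 1 the highest. All 11 leaned toward woodrats, 2 of them at an FDR below 0.01, which is 18.2% against 20.0% of all tested genes. Tpm2 and Smtn overlapped between the species (FDR = 0.146 and 0.247). Markers of squamous epithelium summed to between 19380 and 47240 CPM in woodrats, with woodrat 1 the lowest, and between 23910 and 39390 CPM in lab rats (12 of 12). Single squamous markers went both ways. Krt4 was 10.1-fold higher in woodrats (FDR = 0.00626), while Krtdap and Ivl were 5.62-fold and 31.1-fold lower (FDR = 0.00523 and 0.000172). The other 9 did not pass an FDR below 0.01. Of 13 markers of the glandular stomach, 9 were in the files, and these summed to between 7.32 and 12.9 CPM in any animal, with Gkn1, Gkn2, Tff2, Muc6, Pgc, Ghrl and Muc5ac at 0 reads in all lab rats. In woodrats 1, 2 and 3, Muc5ac had 17, 12 and 33 reads (higher in woodrats, FDR = 0.00305) and Gkn2 had 9, 0 and 1. Markers of leukocytes (13 of 14 in the files) summed to between 17.4 and 23.7 CPM in woodrats and between 44.5 and 77.9 CPM in lab rats, and those of endothelium (8 of 8) to between 65.2 and 120 CPM and between 163 and 172 CPM. Not all followed these sums. The leukocyte markers S100a9 and Cd79a, not tested, had higher values in every woodrat than in any lab rat, and Cd68 overlapped (FDR = 0.899). The endothelial Cdh5 and Vwf also overlapped (FDR = 0.408 and 0.962). Skeletal muscle markers (8 of 10 in the files) went both ways. Ckm and Tnni2 were higher in woodrats (FDR = 0.00141 and 0.00234), while the myosin heavy chains Myh1, Myh2 and Myh4 and the troponin Tnnt3, all with mean values of 3.22 CPM or less in either species, had higher values in every lab rat than in any woodrat. Of these, Myh4 and Tnnt3 did not pass the threshold (FDR = 0.0147 and 0.0321), and Myh1 and Myh2 were not tested. The part of these cell types in the differences below was not tested. Reads were not corrected for transcript length, so CPM values are compared between animals for the same gene and not between genes.

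Of the 64 genes, 46 reached 1 CPM in 3 or more animals and entered the test. At a false discovery rate (FDR) below 0.01 (edgeR quasi-likelihood F-test over 12603 genes), 14 of the 46 differed between the species, 10 with higher abundance in lab rats and 4 with higher abundance in woodrats. This is 30.4% of those tested, against 20.0% of all tested genes, of which 9.71% were higher in lab rats and 10.3% in woodrats. The count was 7 without woodrat 2 and 9 without lab rat 1, where 7.13% and 7.43% of all tested genes passed. The median log2 fold change (log2FC, woodrat minus lab rat) of the tested members was -0.004, against 0.03 over all tested genes. The gene on the lab rat side with the smallest FDR was the Na/K-ATPase subunit Atp1b3. The 4 genes on the woodrat side were the transmembrane carbonic anhydrase Car14, the sodium-potassium-chloride cotransporter Slc12a2, the Na/K-ATPase subunit Atp1b2 and the chloride/bicarbonate exchanger Slc4a3.

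**Figure D1:**
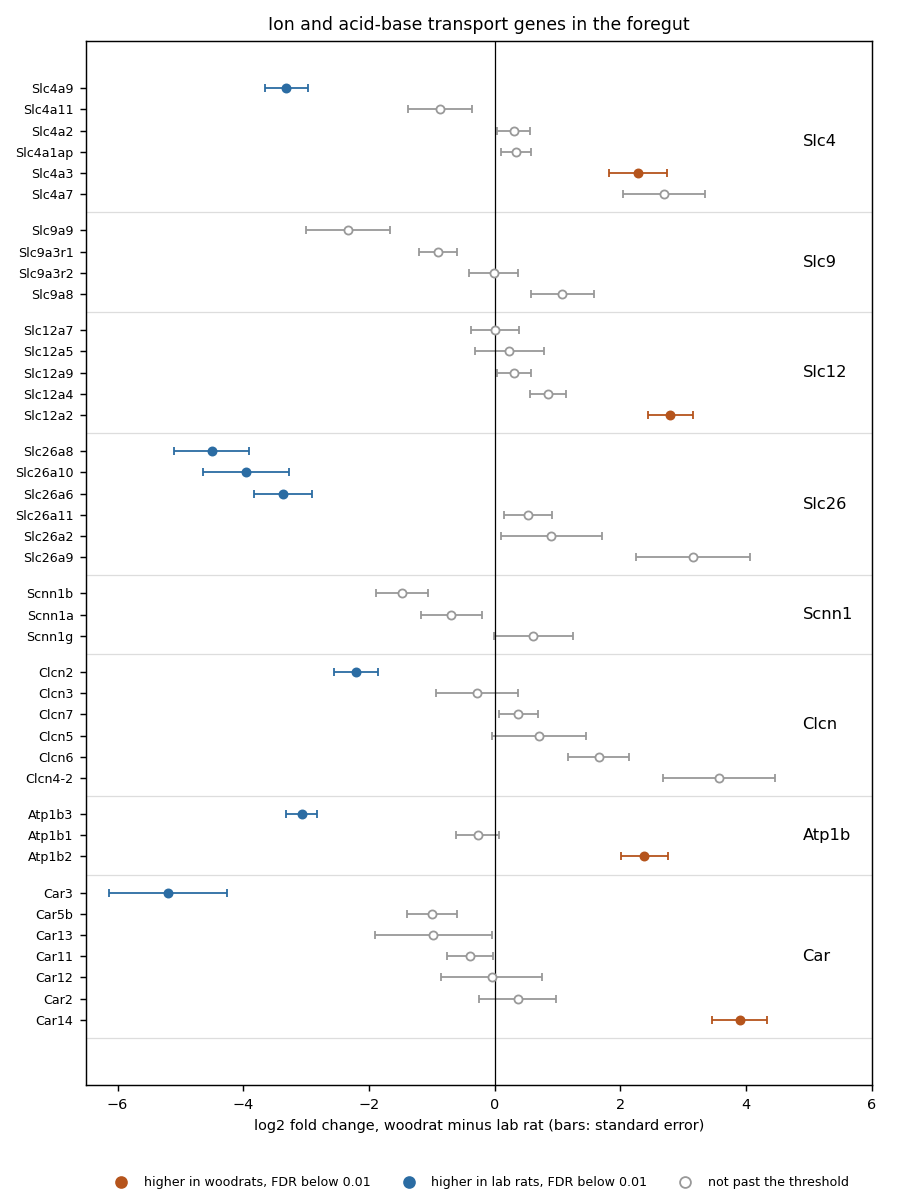
Log2FC (x axis, woodrat minus lab rat, bars give the standard error) of 40 tested genes, grouped by family. Filled points passed an FDR below 0.01, 4 to the right of 0 and 7 to the left, with Car14 farthest to the right and Car3 farthest to the left.

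The Na/K-ATPase is built of a catalytic alpha subunit and a beta subunit that carries it to the membrane. All 3 beta subunit genes were tested, and 2 of them differed, in opposite directions. This is 66.7% of only 3 genes, against 20.0% of all tested genes. Atp1b3 (ENSMUSG00000032412.8) had 29.5, 21.2 and 28.3 CPM in woodrats and 210, 237 and 217 CPM in lab rats. This was the smallest FDR of all members, with a log2FC of -3.07 (standard error, SE, 0.25, FDR = 0.000249), or 8.41-fold lower in woodrats. Atp1b2 (ENSMUSG00000041329.12), a beta subunit also known as an adhesion molecule of glia, went the other way, with 26.4, 27.3 and 15.5 CPM in woodrats and 5.09, 5.13 and 2.89 CPM in lab rats. Its log2FC was 2.38 (SE 0.37, FDR = 0.00226), with an FDR of 0.0115 when woodrat 2 was left out. Atp1b1, the usual beta subunit of epithelia, overlapped between the species, with 27.7, 66.3 and 51.3 CPM in woodrats and 57.0, 72.3 and 45.8 CPM in lab rats (log2FC -0.27, SE 0.34, FDR = 0.561). The summed glial markers were between 55.9 and 65.4 CPM in woodrats and between 27.5 and 52.6 CPM in lab rats (8 of 8 in the files), but their members differed in direction. Gfap, Cdh19 and Pmp22 were higher in woodrats, by 26.3-fold, 7.23-fold and 2.85-fold (FDR = 0.00567, 0.00687 and 0.00465), against 5.22-fold for Atp1b2. Erbb3, the glial marker with the highest lab rat mean (25.6 CPM), overlapped, and S100b was lower in every woodrat (FDR = 0.0238). The part of glia in the higher Atp1b2 was not tested.

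The make-up of the beta subunit reads therefore shifted, as shares of reads and not of molecules. Atp1b3 gave 35.3%, 18.5% and 29.8% of the Atp1b reads in woodrats 1, 2 and 3, and 77.2%, 75.4% and 81.7% in the lab rats. The 95% exact binomial intervals, which cover counting error only, ran from 15.9% to 40.0% over the woodrats and from 73.4% to 83.7% over the lab rats. Atp1b2 gave 31.5%, 23.8% and 16.3% in woodrats and 1.87%, 1.63% and 1.09% in lab rats, and Atp1b1 gave 48.3% ± 13.2 (SD, n = 3) in woodrats against 20.4% ± 2.89 (SD, n = 3) in lab rats. None of these 3 shares overlapped between the species (exact permutation test, two-sided p = 0.1 for each, the smallest that 3 animals against 3 allow). The shares of an animal are parts of 1 total and depend on each other, so these are not 3 separate results.

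**Figure D2:**
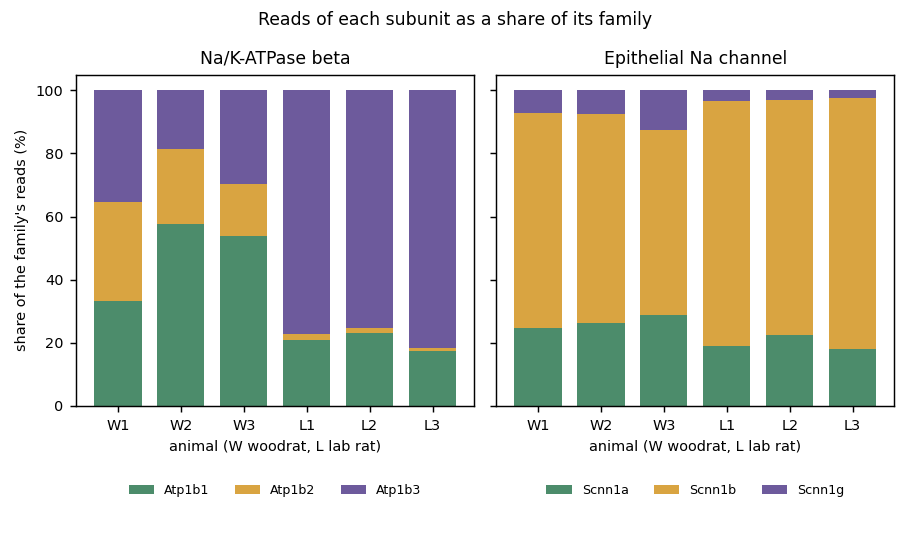
Share of the reads of each family (y axis, percent) that came from each subunit, in woodrats 1 to 3 (W1 to W3) and lab rats 1 to 3 (L1 to L3). Atp1b3 makes up between 75.4% and 81.7% of the Atp1b reads in lab rats and between 18.5% and 35.3% in woodrats, and Scnn1b between 74.4% and 79.5% of the Scnn1 reads in lab rats and between 58.7% and 68.2% in woodrats.

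Carbonic anhydrases convert carbon dioxide and water to protons and bicarbonate. The files hold 12 genes of the family, the inactive Car8 and Car11 included, of which 7 were tested and 2 differed, in opposite directions. This is 28.6% of those tested, against 20.0% of all tested genes. Car14 (ENSMUSG00000038526.13), a membrane enzyme whose active site faces the outside of the cell, had 485, 379 and 590 reads in woodrats and 22, 25 and 41 reads in lab rats. In CPM these were 94.7, 52.6 and 69.9 in woodrats and 2.73, 4.14 and 7.90 in lab rats. The log2FC was 3.90 (SE 0.44, FDR = 0.000744), or 14.9-fold higher in woodrats, and it stayed between 3.59 and 4.41 with any 1 animal left out.

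Car3 (ENSMUSG00000027559.5), an enzyme of low activity that is abundant in muscle and fat, had 2, 1 and 5 reads in woodrats and 242, 19 and 54 reads in lab rats. The lab rats thus spanned 3.14 to 30.0 CPM, while no woodrat was above 0.592 CPM. The log2FC was -5.20 (SE 0.94, FDR = 0.00393), a size that rests on few woodrat reads and was -4.08 without lab rat 1, -5.79 without woodrat 3 and -4.46 with a prior count of 2. The FDR was 0.0110 without woodrat 1, 0.0180 without woodrat 2 and 0.0156 without lab rat 3. The fat cell marker Plin1, which coats lipid droplets, had 27, 0 and 7 reads in lab rats 1, 2 and 3 and 2, 1 and 2 reads in woodrats. Plin1 is named after its values were seen. Of the other fat cell markers, Fabp4 had 56.5, 25.1 and 70.9 CPM in lab rats and 21.5, 13.5 and 19.3 CPM in woodrats (FDR = 0.0181), while Lipe leaned toward woodrats, with a mean of 53.7 CPM against 29.5 CPM (FDR = 0.132). Summed over the 4 of 8 fat cell markers in the files, lab rats had 107, 41.0 and 100 CPM and woodrats 64.7, 56.9 and 96.5 CPM, which overlapped, and their part in the Car3 difference was not tested.

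The other 5 tested carbonic anhydrases did not pass the threshold. Car2, the main enzyme of the cytosol, had 6.84, 10.1 and 42.9 CPM in woodrats and 15.6, 15.2 and 16.0 CPM in lab rats, so that the woodrats lay on both sides of tightly grouped lab rats. Red blood cells are rich in Car2, and the hemoglobin and Alas2 transcripts summed to between 12.0 and 35.9 CPM in woodrats and between 253 and 497 CPM in lab rats (3 of 9 listed genes in the files). Slc4a1, the bicarbonate exchanger of red cells, had no more than 1 read in any animal. Car5b, the mitochondrial enzyme, had 6.05, 18.6 and 16.0 CPM in woodrats and 25.7, 29.8 and 26.0 CPM in lab rats, without overlap (log2FC -0.99, SE 0.40, FDR = 0.0760). Car12, Car13 and Car11 overlapped, with log2FC from -0.97 to -0.05, and the sign of Car11 and Car12 changed when some animals were left out. Car9, a membrane enzyme known to be induced by low oxygen, was below the filter, with 14, 14 and 2 reads in lab rats and 0, 1 and 4 reads in woodrats, and Car4, Car7, Car8 and Car15 were also not tested.

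The bicarbonate transporters of the Slc4 family move bicarbonate in exchange for chloride or together with sodium. Of 11 genes, 6 were tested and 2 differed, which is 33.3% against 20.0% of all tested genes. Slc4a3 (ENSMUSG00000006576.15), a chloride/bicarbonate exchanger best known from heart and brain, had 106, 58.2 and 29.8 CPM in woodrats and 11.7, 10.8 and 17.5 CPM in lab rats. The woodrats were spread widely but all lay above the lab rats, and the log2FC was 2.28 (SE 0.46, FDR = 0.00604). Woodrat 1, the animal with the highest smooth muscle markers, was also the highest for Slc4a3, and the part of muscle in this difference was not tested. Among the fits that left out 1 animal, the FDR stayed below 0.01 only without woodrat 3 and was between 0.0109 and 0.0263 in the other 5, with a log2FC of 1.73 without woodrat 1.

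Slc4a9 (ENSMUSG00000024485.14), known from acid- and base-secreting cells of the kidney, had 2.54, 4.03 and 3.20 CPM in woodrats and 32.4, 24.6 and 41.6 CPM in lab rats. Its log2FC was -3.32 (SE 0.34, FDR = 0.000551), or 9.98-fold lower in woodrats, and the FDR stayed below 0.01 with any 1 animal left out. Slc4a2, the most widely used chloride/bicarbonate exchanger and the Slc4 gene with the most reads, overlapped, with 92.6, 77.2 and 61.7 CPM in woodrats and 48.4, 64.3 and 75.1 CPM in lab rats (FDR = 0.388). Slc4a7, a sodium-bicarbonate cotransporter, had 11.9, 17.5 and 12.0 CPM in woodrats and 2.23, 3.80 and 0.193 CPM in lab rats. These values did not overlap, but with a log2FC of 2.69 (SE 0.65, FDR = 0.0128) the gene did not pass the threshold, which it did under DESeq2 (FDR = 0.000123). Slc4a1ap and Slc4a11 overlapped (FDR = 0.293 and 0.203), and Slc4a1, Slc4a4, Slc4a5, Slc4a8 and Slc4a10 were not tested.

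The Slc26 family exchanges anions such as chloride, bicarbonate, sulfate and oxalate. Of 8 genes, 6 were tested and 3 differed, all with higher abundance in lab rats. This is 50.0% of those tested, against 20.0% of all tested genes, of which 9.71% were higher in lab rats. Slc26a6 (ENSMUSG00000023259.15), an apical exchanger of chloride for bicarbonate or oxalate, had 1.37, 0.972 and 2.84 CPM in woodrats and 19.5, 13.2 and 22.7 CPM in lab rats. Its log2FC was -3.37 (SE 0.46, FDR = 0.00141). Slc26a8 (ENSMUSG00000036196.14), a family member best known from testis, had 3, 2 and 1 reads in woodrats and 61, 56 and 24 reads in lab rats (log2FC -4.51, SE 0.59, FDR = 0.00120). With so few woodrat reads this size was -3.63 with a prior count of 2 and -5.09 without woodrat 1, and that of Slc26a6 was -3.98 without woodrat 3. For both genes the FDR stayed below 0.01 with any 1 animal left out.

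Slc26a10 (ENSMUSG00000040441.8) had 0, 1 and 1 reads in woodrats and 16, 8 and 10 reads in lab rats (FDR = 0.00344). With so few reads, the ratio of depth-scaled reads was 18.3 in favor of lab rats, with a 95% exact interval from counting error alone of 4.69 to 157. Its FDR was between 0.0101 and 0.0155 without woodrat 2 or without any 1 of the lab rats. Slc26a9, a chloride transporter known from stomach and airway surfaces, leaned toward woodrats, with 4.49, 16.4 and 28.5 CPM against 2.36, 2.98 and 0 CPM in lab rats. Its log2FC of 3.16 (SE 0.91, FDR = 0.0241) did not pass the threshold, although the species did not overlap. Slc26a2, a sulfate transporter, and Slc26a11 had log2FC values of 0.90 and 0.53 (FDR = 0.398 and 0.299). Slc26a1 and Slc26a4 were not tested.

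**Figure D3:**
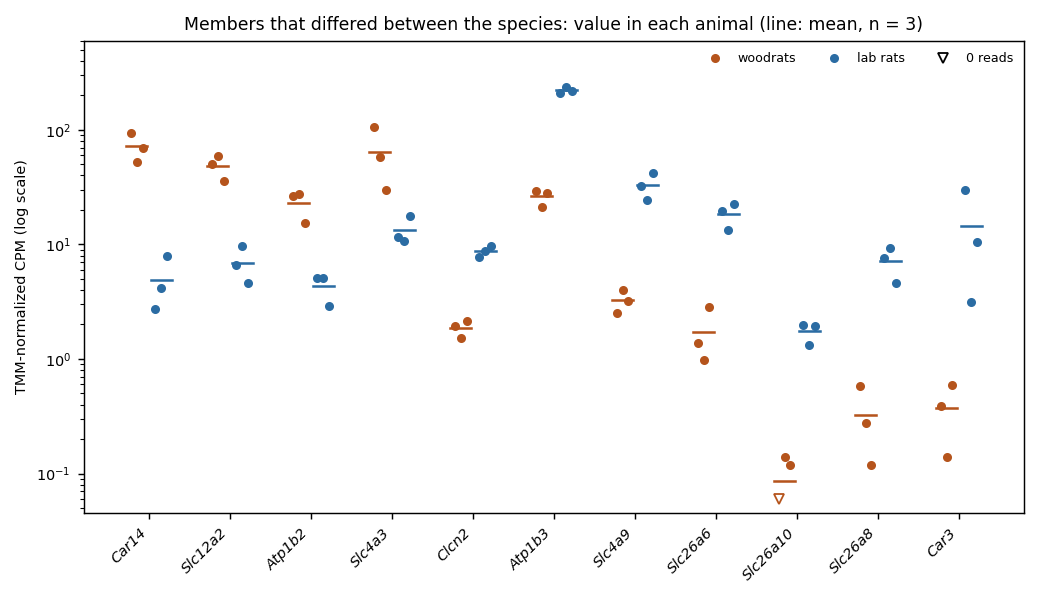
TMM-normalized CPM (log scale) in each animal for 11 genes that differed between the species, ordered by log2FC, with a line at the mean of 3 animals and an open triangle for 0 reads. No gene has overlapping species, the lab rats are widely spread for Car3 (3.14 to 30.0 CPM), and the woodrats for Slc4a3 (29.8 to 106 CPM).

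Cation-chloride cotransporters of the Slc12 family set the chloride content and the volume of cells. All 6 tested genes had positive log2FC values, from 0.01 for Slc12a7 to 2.80 for Slc12a2, but only Slc12a2 passed the threshold, and the sign of Slc12a7 changed under other scalings (-0.08 with total counts only). The share that passed was 16.7%, against 20.0% of all tested genes. Slc12a2 (ENSMUSG00000024597.10), which carries sodium, potassium and chloride into the cell, had 50.0, 59.7 and 35.8 CPM in woodrats and 6.58, 9.59 and 4.62 CPM in lab rats. The log2FC was 2.80 (SE 0.35, FDR = 0.00105), or 6.96-fold higher in woodrats, and the FDR stayed below 0.01 with any 1 animal left out.

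Potassium-chloride cotransporters carry chloride out of the cell. Slc12a4 had 77.1, 46.4 and 41.2 CPM in woodrats and 28.0, 29.8 and 33.5 CPM in lab rats (log2FC 0.85, SE 0.29, FDR = 0.0450). It did not overlap between the species and did not pass the threshold. Slc12a7 and the neuronal Slc12a5 overlapped, with FDR values of 0.992 and 0.758, and Slc12a9 had an FDR of 0.400.

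The epithelial sodium channel admits sodium from the lumen and is built of the subunits Scnn1a, Scnn1b and Scnn1g. None of the 3 passed the threshold (0 at an FDR below 0.01, 1 at an unadjusted p below 0.05, and 1 under DESeq2, in each case Scnn1b). Scnn1b had 40.6, 67.2 and 134 CPM in woodrats and 251, 216 and 205 CPM in lab rats, a log2FC of -1.47 (SE 0.41, FDR = 0.0219). The species did not overlap, and without woodrat 3 the log2FC was -2.05 (FDR = 0.00233). Scnn1a had 14.6, 26.8 and 65.6 CPM in woodrats and 61.9, 65.3 and 46.2 CPM in lab rats, and Scnn1g 4.30, 7.77 and 28.5 CPM in woodrats and 11.2, 8.93 and 6.55 CPM in lab rats. For Scnn1a woodrat 3 lay above all lab rats while woodrats 1 and 2 lay below them, and for Scnn1g woodrat 3 was again the highest animal. The FDR was 0.281 for Scnn1a and 0.460 for Scnn1g, whose log2FC of 0.62 was -0.55 without woodrat 3.

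The shares of the 3 genes in the Scnn1 reads, which are not shares of molecules in the channel, did not overlap between the species. Scnn1b gave 68.2%, 66.0% and 58.7% of the Scnn1 reads in woodrats and 77.5%, 74.4% and 79.5% in lab rats. Scnn1g gave 7.21%, 7.64% and 12.5% in woodrats and 3.44%, 3.08% and 2.54% in lab rats. Scnn1a gave 24.6%, 26.3% and 28.8% in woodrats and 19.1%, 22.6% and 17.9% in lab rats. For each of the 3 shares the exact permutation test gave a two-sided p of 0.1, the smallest possible. These 3 shares also depend on each other and are not separate results.

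The spread of these subunits among woodrats was shared by many members. In 17 of the 46 tested genes woodrat 1 was the lowest and woodrat 3 the highest of the woodrats, and in 8 it was the reverse. Among the genes with the widest spread, chosen after their values were seen, woodrat 3 was 30.3 times as high as woodrat 1 for Car13, 17.5 times for Car12, 12.6 times for Slc9a9, 7.21 times for Clcn3, 6.64 times for Scnn1g, 6.36 times for Slc26a9 and 6.27 times for Car2. Of the 12 squamous epithelium markers, 10 had the same order, with ratios of 30.3 for Trp63, the master factor of basal squamous cells, 43.2 for the desmosomal Dsc3 and 22.5 for Pkp1. The marker Ivl had a ratio of 0.69 and Krtdap 1.13, and the smooth muscle markers were highest in woodrat 1 in all 11 genes. The part of tissue make-up in the spread of the members was not tested. Without woodrat 3, the log2FC of Car13 moved from -0.97 (FDR = 0.430) to -3.36 (FDR = 0.00269). Among lab rats, 25 of the 46 genes were lowest in lab rat 3.

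**Figure D4:**
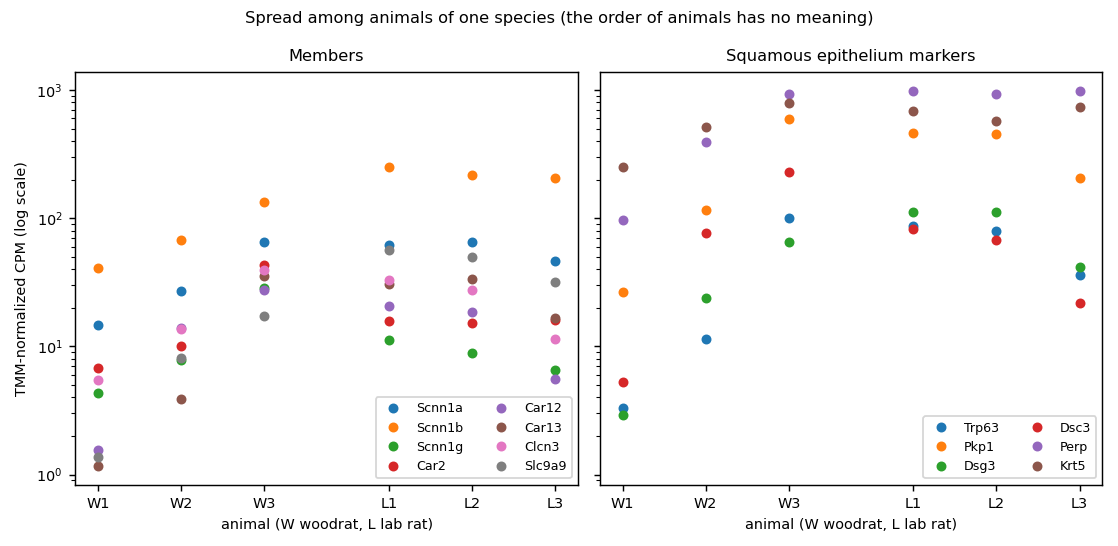
TMM-normalized CPM (log scale) of 8 members with a wide spread among woodrats (left) and of 6 squamous epithelium markers (right) in each animal. The genes shown were chosen after their values were seen, and in all of them woodrat 1 is the lowest and woodrat 3 the highest woodrat. Trp63 goes from 3.32 to 101 CPM and Car13 from 1.17 to 35.5 CPM. The markers Ivl and Krtdap, which do not have this order, are not shown.

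The Slc9 family exchanges sodium for protons, at the cell surface or in endosomes and the Golgi apparatus. Of 8 exchanger genes, 4 were tested, and with the 2 scaffold genes none of the 6 passed the threshold (0 at an FDR below 0.01, 3 at an unadjusted p below 0.05 and 1, Slc9a9, under DESeq2). Slc9a9, an exchanger of endosomes, had 1.37, 8.19 and 17.2 CPM in woodrats and 56.3, 49.5 and 31.6 CPM in lab rats, a log2FC of -2.33 (SE 0.67, FDR = 0.0243). Without woodrat 3 the FDR of Slc9a9 was 0.00527. Slc9a8 of the Golgi apparatus had 11.5, 6.80 and 10.4 CPM in woodrats and 5.09, 6.78 and 1.54 CPM in lab rats, without overlap (log2FC 1.08, SE 0.50, FDR = 0.119).

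The apical exchangers of absorbing epithelia, Slc9a2 and Slc9a3, had few reads. Slc9a2 had 2, 0 and 0 reads in woodrats and 3, 0 and 0 reads in lab rats. Slc9a3 had 2, 0 and 39 reads in woodrats and 2, 1 and 0 reads in lab rats, so that 39 of its 41 woodrat reads came from woodrat 3. Slc9a5 and Slc9a7 were also not tested. The scaffold Slc9a3r1 had 100, 179 and 189 CPM in woodrats and 291, 264 and 319 CPM in lab rats (log2FC -0.90, SE 0.30, FDR = 0.0405), and Slc9a3r2 overlapped (FDR = 0.980).

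ClC proteins are chloride channels of the cell surface or chloride/proton exchangers of endosomes and lysosomes. Of 7 genes, 6 were tested and 1 differed, which is 16.7% against 20.0% of all tested genes. Clcn2 (ENSMUSG00000022843.15), the channel of the cell surface, had 1.95, 1.53 and 2.13 CPM in woodrats and 7.82, 8.77 and 9.63 CPM in lab rats. Its log2FC was -2.21 (SE 0.35, FDR = 0.00235), and its FDR was 0.0132 without woodrat 2, 0.0104 without lab rat 1 and 0.0111 without lab rat 2. The intracellular exchangers lay elsewhere. Clcn6 had 11.5, 13.2 and 7.11 CPM in woodrats and 2.98, 5.46 and 1.54 CPM in lab rats (log2FC 1.66, SE 0.48, FDR = 0.0258). Clcn4-2 had 6, 35 and 16 reads in woodrats and 1, 3 and 0 in lab rats (log2FC 3.57, SE 0.89, FDR = 0.0143). Neither overlapped and neither passed the threshold, while Clcn3, Clcn5 and the lysosomal Clcn7 overlapped, with FDR values from 0.354 to 0.761. Clcn3, the gene of this family with the most reads, had 5.47, 13.6 and 39.4 CPM in woodrats and 32.6, 27.3 and 11.4 CPM in lab rats.

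In each of the 14 genes that differed, the values of the species did not overlap. The same was true of 14 of the 32 that did not pass, so that 28 of 46 were without overlap, against 56.2% of all tested genes. Between an FDR of 0.01 and 0.05 lay 9 genes, which brings the count below 0.05 to 23 of 46, against 39.9% of all tested genes. The 18 genes that were not tested had between 1 and 44 reads over all 6 animals, and 14 of them had under 20. Those with 20 or more were Slc9a3, Slc9a7, Slc12a8 and Car9. Of these, Slc9a7 had 1, 0 and 5 reads in woodrats and 13, 15 and 3 in lab rats, and Slc12a8 had 13, 6 and 5 in woodrats and 0, 3 and 0 in lab rats.

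Genes that regulate or accompany these transporters were examined in 6 lists, of which 129 genes were in the files and 82 were tested. Of these, 20 differed, 13 with higher abundance in woodrats and 7 in lab rats, which is 24.4% against the 20.0% of all tested genes. The median log2FC was 0.31.

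**Figure D5:**
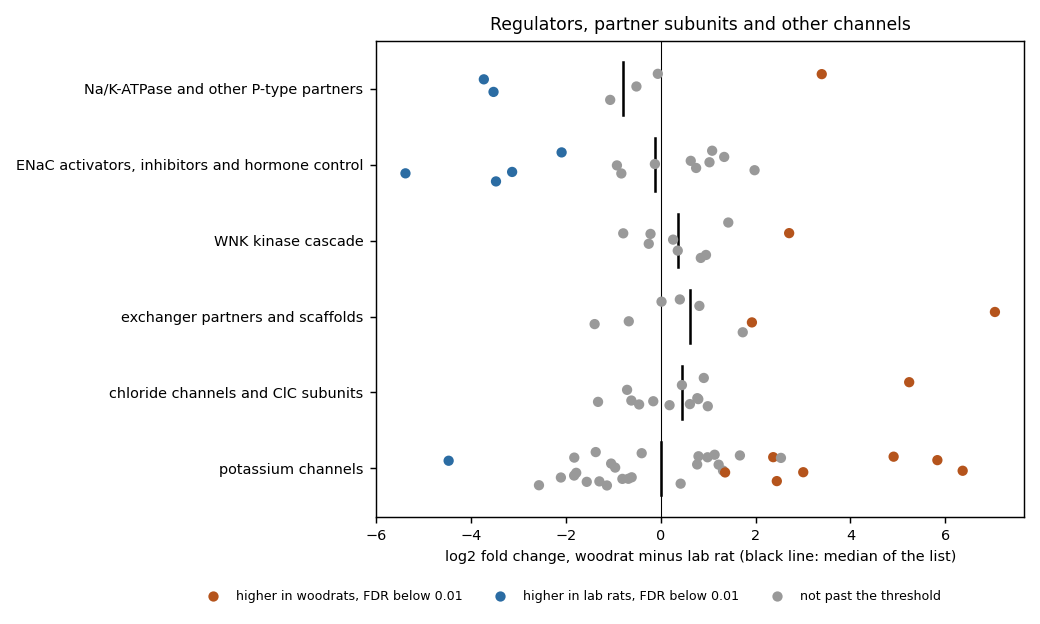
Log2FC (x axis, woodrat minus lab rat) of 81 tested genes in 6 lists, with a black line at the median of the genes shown in each list and vertical scatter added for display. Among the potassium channels 7 colored points lie to the right and 1 to the left, and the regulators of the sodium channel have 4 colored points, all to the left.

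FXYD proteins are small subunits that tune the Na/K-ATPase. Fxyd5 had 3.13, 1.11 and 1.30 CPM in woodrats and 19.1, 16.0 and 26.8 CPM in lab rats (log2FC -3.52, SE 0.46, FDR = 0.00119). Fxyd2, the subunit of the kidney pump, was also lower in woodrats, with 0, 0.555 and 0.474 CPM against 3.72, 3.31 and 8.67 CPM (log2FC -3.73, SE 0.73, FDR = 0.00534). Fxyd6, best known from brain, was higher in woodrats, with 284, 148 and 96.0 CPM against 14.6, 17.0 and 18.5 CPM (log2FC 3.40, SE 0.42, FDR = 0.000991). Fxyd1 of muscle overlapped (FDR = 0.937), and Fxyd3 of epithelia had an FDR of 0.0489. The pump of acid-secreting cells, Atp4a, had 5.69 to 6.05 CPM in woodrats and 6.74 to 9.76 CPM in lab rats (FDR = 0.216).

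Of 13 regulators of the sodium channel, all tested, 4 differed, each with lower abundance in woodrats, which is 30.8% against 20.0% of all tested genes. Of these, 2 encode membrane-bound serine proteases of a kind that can activate the channel. Tmprss4 had 0.391, 6.11 and 4.74 CPM in woodrats and 148, 150 and 188 CPM in lab rats (log2FC -5.38, SE 0.66, FDR = 0.000965). St14 had 18.8, 32.3 and 46.4 CPM in woodrats and 126, 119 and 171 CPM in lab rats (log2FC -2.09, SE 0.35, FDR = 0.00303). Hsd11b2, which inactivates glucocorticoids in cells that respond to aldosterone, had 0.977, 4.30 and 8.06 CPM in woodrats and 39.3, 35.6 and 45.8 CPM in lab rats (log2FC -3.13, SE 0.57, FDR = 0.00402). The kinase Sgk2 had a log2FC of -3.47 (FDR = 0.00368). The protease Prss8 and the kinase Sgk1 overlapped between the species. The genes of this list that came nearest to the threshold without passing it leaned both ways. Nedd4l, the ubiquitin ligase that removes the channel from the membrane, had a log2FC of 1.03 (FDR = 0.0252). Furin was also higher in every woodrat than in any lab rat (log2FC 1.085, FDR = 0.02). Nr3c2 leaned toward woodrats (log2FC 1.979, FDR = 0.0378) but overlapped between the species. Spint2 was lower in every woodrat than in any lab rat (log2FC -0.922, FDR = 0.0449).

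Kinases of the WNK cascade switch the Slc12 cotransporters on and off. Wnk1 had 375, 320 and 656 CPM in woodrats and 89.8, 84.0 and 32.6 CPM in lab rats, a log2FC of 2.71 (SE 0.46, FDR = 0.00311). It was the only 1 of 9 tested genes of the list to pass, which is 11.1% against 20.0% of all tested genes. The kinases that act directly on the cotransporters were closer, with log2FC values of -0.21 for Stk39 (FDR = 0.478) and 0.95 for Oxsr1 (FDR = 0.0374).

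Among 8 tested partners and scaffolds of the exchangers, 2 differed, which is 25.0% against 20.0% of all tested genes. Tesc, a calcium-binding protein, had 129, 128 and 400 reads in woodrats and 1, 1 and 2 reads in lab rats, with a log2FC of 7.05 (SE 0.62, FDR = 0.000313). Rdx, which links membrane proteins to actin, had 109, 103 and 82.4 CPM in woodrats and 31.6, 31.9 and 13.7 CPM in lab rats (log2FC 1.92, SE 0.35, FDR = 0.00387). Its relative Ezr, the form of most epithelia, overlapped (FDR = 0.980). Of 13 tested chloride channels and ClC subunits, only Best3 passed (FDR = 0.00514), which is 7.69% against 20.0% of all tested genes. Best3 had 19, 25 and 8 reads in woodrats and 1 read in the lab rats together, a ratio of depth-scaled reads of 48.3 (95% exact interval 8.30 to 1945).

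Potassium channels return to the outside the potassium that the pump brings in. Of 73 genes whose symbols begin with Kcn, 33 were tested, 8 were higher in woodrats and 1 in lab rats, which is 27.3% against 20.0% of all tested genes. Kcnma1, the pore of the large-conductance calcium-activated channel, had 187, 191 and 95.4 CPM in woodrats and 29.2, 42.2 and 19.8 CPM in lab rats (log2FC 2.37, SE 0.38, FDR = 0.00251). Kcnj8, the pore of the ATP-sensitive channel of smooth muscle, had 96.9, 91.2 and 61.8 CPM in woodrats and 30.9, 34.6 and 32.0 CPM in lab rats (log2FC 1.36, SE 0.25, FDR = 0.00418). Kcns3 and Kcnf1, modifier subunits of voltage-gated channels, had log2FC values of 2.45 and 3.01 (FDR = 0.00230 and 0.00363).

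For Kcnf1, Kcns3, Kcnj8 and Kcnab1, woodrat 1 was the highest animal, as it was for the smooth muscle markers. Kcnma1 was highest in woodrat 2, and Kcna2 and Kcnh3 were highest in woodrat 3. The part of muscle in these differences was not tested. Kcna2 and its partner Kcnab1 had very few lab rat reads. Kcna2 had 124 reads in the woodrats together and 1 in the lab rats, a ratio of depth-scaled reads of 115 (95% exact interval 20.3 to 4587, FDR = 0.000865), and Kcnab1 had 129 and 2 (ratio 59.9, interval 16.3 to 500.2, FDR = 0.00217). Kcnh3 had 4.88, 6.94 and 22.7 CPM in woodrats and between 0.248 and 0.578 CPM in lab rats (log2FC 4.91, FDR = 0.00238). On the other side, Kcnk4, a background channel that responds to stretch, had 0.586, 0.278 and 1.30 CPM in woodrats and 15.6, 14.2 and 21.2 CPM in lab rats, a log2FC of -4.47 (SE 0.51, FDR = 0.000810).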

How the data were processed

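Foregut tissue of 3 woodrats and 3 lab rats was sequenced from stranded, polyA-selected libraries. The authors trimmed read pairs with Trimmomatic, merged them with FLASH, aligned them with cross_match to mouse coding transcripts (GENCODE M7), removed some mouse genes on the basis of multiply aligned reads, and deposited the raw counts, not normalized, of reads with a unique gene. Versions are not given in the sources used here. The labels also name a genome build, mm9, but the files give no coordinates. Both species were aligned to mouse, so a gene that diverged more in 1 of them can be undercounted there. The study examined its alignments for such bias, and it was not tested here for single genes.

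Counts were joined by gene identifier (Python 3.11.15, pandas 2.3.3). Genes that reached 1 CPM in 3 or more animals were kept, and edgeR 4.0.16 (R 4.3.3) gave TMM factors and the quasi-likelihood F-test (the method used before version 4, species as the only term, prior count 0.125, Benjamini-Hochberg adjustment over all tested genes, threshold FDR 0.01). The study also used edgeR's quasi-likelihood test and FDR, with another filter on low counts. The standard error is the log2 fold change divided by the square root of F. Shares were compared by exact permutation tests (scipy 1.17.1). The members, gene lists and tests were chosen with earlier results of these data known. Members with an FDR below 0.05 and the gene with the most reads in each family are given in every animal, and partner genes are named where their FDR was below 0.01, apart from some genes that are not reported here. Other genes given with values were chosen after their values were seen. In simulated counts for this comparison over 12603 genes, 70 of 100 genes changed by 2 and 98 of 100 changed by 3 on the log2 scale were recovered, with 1 false call. The simulation gave every gene the same dispersion, the spread between animals. Recovery and false calls among genes of unequal spread, as in the real counts, were therefore not measured. No 2 animals of a species agreed within counting noise (chi-square per degree of freedom from 10.1 to 121.3). The replicates are separate animals.

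Alternatives were a filter at 5 CPM or none, DESeq2 size factors or total counts only, edgeR 4 quasi-likelihood, robust estimation, DESeq2 1.42.0, glmTreat with a minimum log2 change of 1, an FDR of 0.05, a prior count of 2, the replicate number as a block and each animal left out. No sequences or gene positions are given, since no reference was used here.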

Additional observations from a re-analysis of the deposited data

How the results depend on the processing

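Of the 46 tested members, 14 passed an FDR below 0.01. All 14 passed without a filter and with DESeq2 size factors, total counts only, edgeR 4 quasi-likelihood, robust estimation, a prior count of 2 and DESeq2, and none (0) changed sign under any alternative run. The filter at 5 CPM left 11 of the 14 to be tested, and these 11 passed. With glmTreat 8 members passed, 2 toward woodrats and 6 toward lab rats, and 8 partner genes in place of 20. The share of all tested genes that passed was 6.61% there, in place of 20.0%. At an FDR below 0.05, 23 members passed, 10 of them toward woodrats, and 38 partner genes. DESeq2 called 9 members toward woodrats in place of 4, and 31.1% of all tested genes.

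With the replicate block 8 members passed, 5 of them toward lab rats in place of 10, and 10 partner genes. Of all tested genes, 5.68% passed with the block. The numbers of the labels were not shown to pair the animals, since same-numbered animals deviated with correlations from -0.289 to -0.088, and no animal correlated best with its own number. Without 1 animal, 7 to 17 members passed, 2 to 4 toward woodrats and 5 to 13 toward lab rats, and 9 to 24 partner genes. Between 7.13% and 20.8% of all tested genes passed in these fits. The count of members was 7 without woodrat 2 and 9 without lab rat 1, where 7.13% and 7.43% of all tested genes passed. That of partner genes was 10 without woodrat 2, 9 without lab rat 1, 11 without lab rat 2 and 9 without lab rat 3. The causes were not tested.

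Signs changed only in members with an FDR of 0.398 or more. The log2FC of Slc12a7 was -0.013 with DESeq2 size factors, -0.082 with total counts only, -0.002 with the replicate block and -0.015 under DESeq2, and that of Car2 was -0.119 with the replicate block. Without 1 animal, the log2FC ran from -0.482 to 0.236 for Slc9a3r2, -0.087 to 0.546 for Slc12a5, -0.283 to 0.228 for Slc12a7, -0.233 to 1.286 for Slc26a2, -0.55 to 1.026 for Scnn1g, -1.305 to 0.155 for Clcn3, -0.296 to 1.468 for Clcn5, -0.601 to 0.01 for Atp1b1, -0.87 to 0.766 for Car2, -0.597 to 0.094 for Car11 and -0.91 to 0.465 for Car12. The woodrat reads of Slc26a10, Slc26a8 and Car3, 0 to 5 in each animal, lay near the floor of 3 reads.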
